A study of Homo sapiens with 12 samples.

Results

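The metallothionein genes MT1E, MT1F, MT1G, MT1M, MT1X and MT2A, the zinc sensor MTF1 and the zinc exporter SLC30A1 were followed across RNA sequencing libraries labelled as A549, an established human lung adenocarcinoma line. These 8 genes were taken from the 61541 gene rows of the count table by their symbols, whatever their values. All 8 had a row, and 6 of them had enough counts to be tested among 16768 genes. MT1G and MT1M did not: MT1G had 2 counts and MT1M 1 count in total over all 12 libraries. MT1E passed the low-count filter only through the control groups, where it is expressed.

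There were 4 groups of 3 libraries, all from cells transduced with Cas9 guides 14 days earlier and given no other treatment. The lone control group (genotype NTC KO in the labels, guide gNTC1) had received a non-targeting guide. In the lone knockout group (genotype TYMS KO, also called TS-KO) Cas9 had been directed at TYMS, which encodes thymidylate synthase. The same 2 kinds of cell were also sequenced from co-culture. The series text says that knockout cells had regained proliferation beside parental A549 in the co-culture. The labels do not name the partner of the co-cultured control cells, nor do they tell whether the 2 populations were sorted apart for RNA extraction or whether the cells were a clone or a pool. They also do not say whether replicates were separate cultures, so p-values measure only the spread between these libraries.

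Metallothioneins are small, cysteine-rich proteins that hold zinc and copper through the thiols of their cysteines, and they also bind cadmium and scavenge oxidants. MTF1 is a zinc-finger transcription factor that enters the nucleus when free zinc rises and binds metal response elements in the promoters of metallothionein genes and of SLC30A1. The SLC30A1 protein sits in the plasma membrane and moves zinc out of the cell. Glucocorticoids and oxidants are further known inducers of MT2A and several MT1 genes.

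The functional metallothionein members lie in 1 cluster on chromosome 16 (positions are 1-based, on GRCh38, from GENCODE 29). MT2A (ENSG00000125148) spans chr16:56608199-56609497 and MT1E (ENSG00000169715) spans chr16:56625475-56627112. MT1F (ENSG00000198417) spans chr16:56657694-56660698 and MT1X (ENSG00000187193) spans chr16:56682424-56684196. These 4 genes are on the plus strand, each with 3 exons in its coding transcript. The untested MT1M (ENSG00000205364) spans chr16:56632233-56633986 on the plus strand, and the untested MT1G (ENSG00000125144) spans chr16:56666731-56668065 on the minus strand. MTF1 (ENSG00000188786) spans chr1:37809567-37859620 and SLC30A1 (ENSG00000170385) spans chr1:211571568-211578742, both on the minus strand.

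The coding sequences of the expressed members are shown because they differ little while their counts went in different directions. Each runs 5′ to 3′ from the start codon without the stop codon, from GENCODE 29 transcripts, and capitals mark the cysteine codons.
MT2A: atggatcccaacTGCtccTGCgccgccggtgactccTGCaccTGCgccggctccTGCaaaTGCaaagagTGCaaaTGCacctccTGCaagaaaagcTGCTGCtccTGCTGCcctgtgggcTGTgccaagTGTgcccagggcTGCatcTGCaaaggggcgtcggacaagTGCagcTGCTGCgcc
MT1E: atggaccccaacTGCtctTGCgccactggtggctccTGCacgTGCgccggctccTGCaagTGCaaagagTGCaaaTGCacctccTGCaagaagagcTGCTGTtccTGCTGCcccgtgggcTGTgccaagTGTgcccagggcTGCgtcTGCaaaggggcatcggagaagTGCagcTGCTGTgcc
MT1X: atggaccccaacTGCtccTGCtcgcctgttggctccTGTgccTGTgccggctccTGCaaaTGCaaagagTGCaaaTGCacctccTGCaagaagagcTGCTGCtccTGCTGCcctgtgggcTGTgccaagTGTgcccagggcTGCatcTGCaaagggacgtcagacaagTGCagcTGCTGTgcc
MT1F: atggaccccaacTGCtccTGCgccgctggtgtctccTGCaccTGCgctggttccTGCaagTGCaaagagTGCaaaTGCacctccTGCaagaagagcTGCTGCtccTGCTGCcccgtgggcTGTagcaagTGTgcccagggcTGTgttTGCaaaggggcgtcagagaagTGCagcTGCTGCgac
All 4 hold 183 bases, or 61 codons, of which 20 encode cysteine. MT1E was identical to MT2A at 92.3% of the 183 positions. MT2A and MT1X were identical at 92.3%, and MT1F and MT1X, the least alike of the 4, at 88.5%.

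With sequences this similar, short reads may be assigned to a copy other than their own. No stretch of 100 bases of MT2A, MT1E, MT1F or MT1A transcripts occurred in a transcript of another gene, MT1A being a neighbour in the cluster that is not among the 8 genes. At 50 bases the shared stretches were 3.02% for MT2A, 7.10% for MT1E, 1.22% for MT1F and 5.76% for MT1A. MT1X shared more, 18.3% at 50 bases and 11.3% at 100 bases, and its exons overlap those of AC026461.1 on the same strand by 321 bases. AC026461.1 (named after its values were seen) was listed at 0 counts in every library. The read length and the treatment of reads with several matches are not given in the sources used here, so values of the single copies carry that uncertainty.

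The promoters of MT2A and MT1X are shown because matches to the metal response element are dense in them, together with that of MT1H, which has more matches but almost no counts here. The 250 bases before the RefSeq start site (GRCh38.p14, plus strand) run 5′ to 3′. RefSeq starts differ from the GENCODE spans given above: the MT2A window lies inside its gene span, and the MT1X window runs into its own. Capitals mark matches, on either strand, to the core TGCACNC or TGCGCNC, where N is any base, and no matches overlapped.
MT2A, chr16:56608334-56608583: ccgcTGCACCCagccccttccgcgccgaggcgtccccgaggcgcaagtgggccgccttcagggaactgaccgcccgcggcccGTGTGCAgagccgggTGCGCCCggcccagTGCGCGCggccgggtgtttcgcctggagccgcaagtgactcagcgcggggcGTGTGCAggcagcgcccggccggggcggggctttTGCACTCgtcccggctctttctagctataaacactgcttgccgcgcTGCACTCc
MT1X, chr16:56682220-56682469: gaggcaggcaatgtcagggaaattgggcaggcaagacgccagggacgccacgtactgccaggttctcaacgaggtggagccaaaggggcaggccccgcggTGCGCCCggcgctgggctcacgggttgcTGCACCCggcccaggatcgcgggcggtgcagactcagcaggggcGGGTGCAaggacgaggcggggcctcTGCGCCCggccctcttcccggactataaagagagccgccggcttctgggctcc
MT1H, chr16:56669564-56669813: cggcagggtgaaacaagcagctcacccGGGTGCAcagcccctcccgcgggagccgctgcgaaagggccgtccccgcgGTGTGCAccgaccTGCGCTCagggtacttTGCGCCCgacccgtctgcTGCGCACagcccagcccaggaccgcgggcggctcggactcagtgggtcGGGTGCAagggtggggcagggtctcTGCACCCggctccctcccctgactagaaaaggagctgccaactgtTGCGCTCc
MT2A held 7 matches, MT1X 4 and MT1H 8. Of 35116 promoters of the same length, 24.8% held at least 1 match, 0.370% at least 4, 0.0313% at least 7 and 0.0171% at least 8. SLC30A1 held 1 match and MTF1 none, and the promoters of 4 of the 8 genes were in the table used. The SLC30A1 window, chr1:211579162-211579411, lies wholly outside the GENCODE span of the gene. MT1H had 3 counts in total over the 12 libraries, so the number of matches did not order these genes by their level. Whether any match is a working site was not tested.

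**Figure D1:**
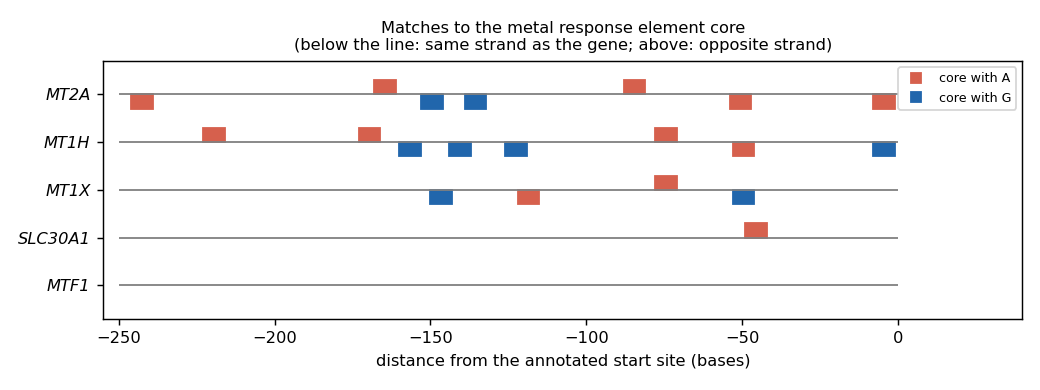
Matches to the metal response element core in the 250 bases before the annotated start sites of MT2A, MT1H, MT1X, SLC30A1 and MTF1. The x axis is the distance from the start site in bases, boxes below a line are on the strand of the gene and boxes above it on the opposite strand, and colours separate the 2 cores. MT2A has 7 boxes, MT1H 8, MT1X 4, SLC30A1 1 and MTF1 none.

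Library totals ranged from 14921371 to 35723762 counts, and values below are CPM (counts per 1000000 counts, scaled by TMM). TYMS stood at 95.3 ± 5.26 CPM (n = 3, SD) in the lone and 93.4 ± 2.67 in the co-cultured control group, against 20.8 ± 0.547 in the lone and 11.04 ± 0.360 in the co-cultured knockout group, which matches the direction of the labels. Other genes set the groups apart in a way that the guide does not describe. A549 is known to lack the 9p21 genes CDKN2A, CDKN2B and MTAP. Their summed level was 122 to 165 CPM in the libraries labelled control and at most 0.745 CPM in the knockout libraries, and CDKN2A had 4 counts in all in the knockout libraries. All 3 were called lower in knockout than in control, alone and in co-culture, where 28.6% and 25.3% of all tested genes were. In the lone knockout 2 of the 3 had no count, so they passed the low-count filter only through the control groups. Their calls were fixed by that filter and are no support. A list of 8 transcripts known to be high in A549 summed to 6478 to 8407 CPM in the libraries labelled control. It summed to 14767 to 16363 CPM in the knockout libraries. Of the 8, 7 were called higher in the lone knockout than in the lone control, where 28% of all tested genes were. EPCAM, an epithelial surface protein, stood at 104 ± 13.6 CPM (n = 3, SD) in the lone control and 0.620 ± 0.264 in the lone knockout, while PTPRC, CD3E and the other immune and endothelial markers together stayed at or below 3.93 CPM in every library. Over the whole lists, 5 epithelial markers summed to 9292 to 15233 CPM in the libraries labelled control and 3958 to 7044 CPM in the knockout libraries, and 6 mesenchymal markers to 357 to 412 CPM and 1888 to 2691 CPM. The libraries labelled control thus go against their cell line label, and in every comparison of knockout with control below the TYMS guide and any other difference between the 2 sets of cells cannot be told apart.

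MT2A, the main metallothionein of most human tissues, was the most abundant member in all 4 groups and was higher in knockout than in control, 2.01-fold alone and 3.58-fold in co-culture. Its level was 287, 312 and 349 CPM in the lone control libraries (replicates 1 to 3) and 246, 264 and 353 CPM in the co-cultured ones. It was 502, 692 and 709 CPM in the lone knockout and 1064, 1205 and 816 CPM in the co-cultured knockout. Every knockout library was above every library labelled control, and every co-cultured knockout library was above every lone one. The share of all genes separated in this way is not given here, so this and the separations below only describe the libraries. The log2 fold change of knockout over control was 1.01 (SE 0.20; adjusted p = 0.000852, edgeR) alone and 1.84 (SE 0.20; adjusted p = 8.48e-06, edgeR) in co-culture. Both calls held in all 20 alternative analyses.

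MT1X, which encodes a closely related isoform, followed MT2A between the cell kinds. It stood at 26.7, 24.2 and 26.5 CPM in the lone control and at 18.0, 16.6 and 29.1 CPM in the co-cultured control. In the knockout it stood at 37.8, 55.7 and 54.0 CPM alone and at 51.3, 65.7 and 47.2 CPM in co-culture. All knockout libraries lay above all libraries labelled control, and the 2 knockout groups overlapped. The log2 fold change of knockout over control was 0.93 (SE 0.22; adjusted p = 0.00329, edgeR) alone and 1.37 (SE 0.22; adjusted p = 0.000243, edgeR) in co-culture, and both calls held in all 20 alternatives.

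MT1E went the other way and was nearly absent from the knockout libraries. Its level was 34.9, 43.1 and 45.8 CPM in the lone control and 40.7, 40.4 and 37.7 CPM in the co-cultured control, which is 563 to 1057 counts a library. The lone knockout libraries had 1, 1 and 0 counts of MT1E, and the co-cultured ones had none. Against a floor of 3 counts a library, averaged over the group as CPM, MT1E was at least 270-fold lower in knockout than in control alone and at least 359.6-fold lower in co-culture. Since MT1E passed the low-count filter only through the control groups, its call in edgeR was fixed by that filter, and no p is given as support. At this depth the floor is 0.153 CPM in the lone and 0.110 CPM in the co-cultured knockout, so a level below these is not detectable.

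MT1F, another MT1 isoform, had the lowest level of the 4 tested metallothionein members in the control groups. It stood at 5.88, 8.98 and 8.30 CPM in the lone control and at 4.27, 5.77 and 7.21 CPM in the co-cultured control. The values were 3.72, 5.32 and 4.98 CPM in the lone knockout and 7.24, 6.91 and 4.96 CPM in the co-cultured knockout. Alone, the 3 knockout libraries lay below the 3 control libraries by a log2 fold change of -0.73 (SE 0.27; adjusted p = 0.0335, edgeR). In co-culture the groups overlapped, with a log2 fold change of 0.14 (SE 0.26; adjusted p = 0.677, edgeR). The call alone was lost with library-size scaling only (edgeR adjusted p = 0.0566) and without any of 4 single libraries. The edgeR adjusted p was 0.107 without lone control replicate 2 and 0.0792 without its replicate 3. It was 0.132 without lone knockout replicate 1 and 0.0519 without its replicate 3. Over 20 alternatives the adjusted p ran from 0.0146 (DESeq2) to 0.132 (edgeR).

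**Figure D2:**
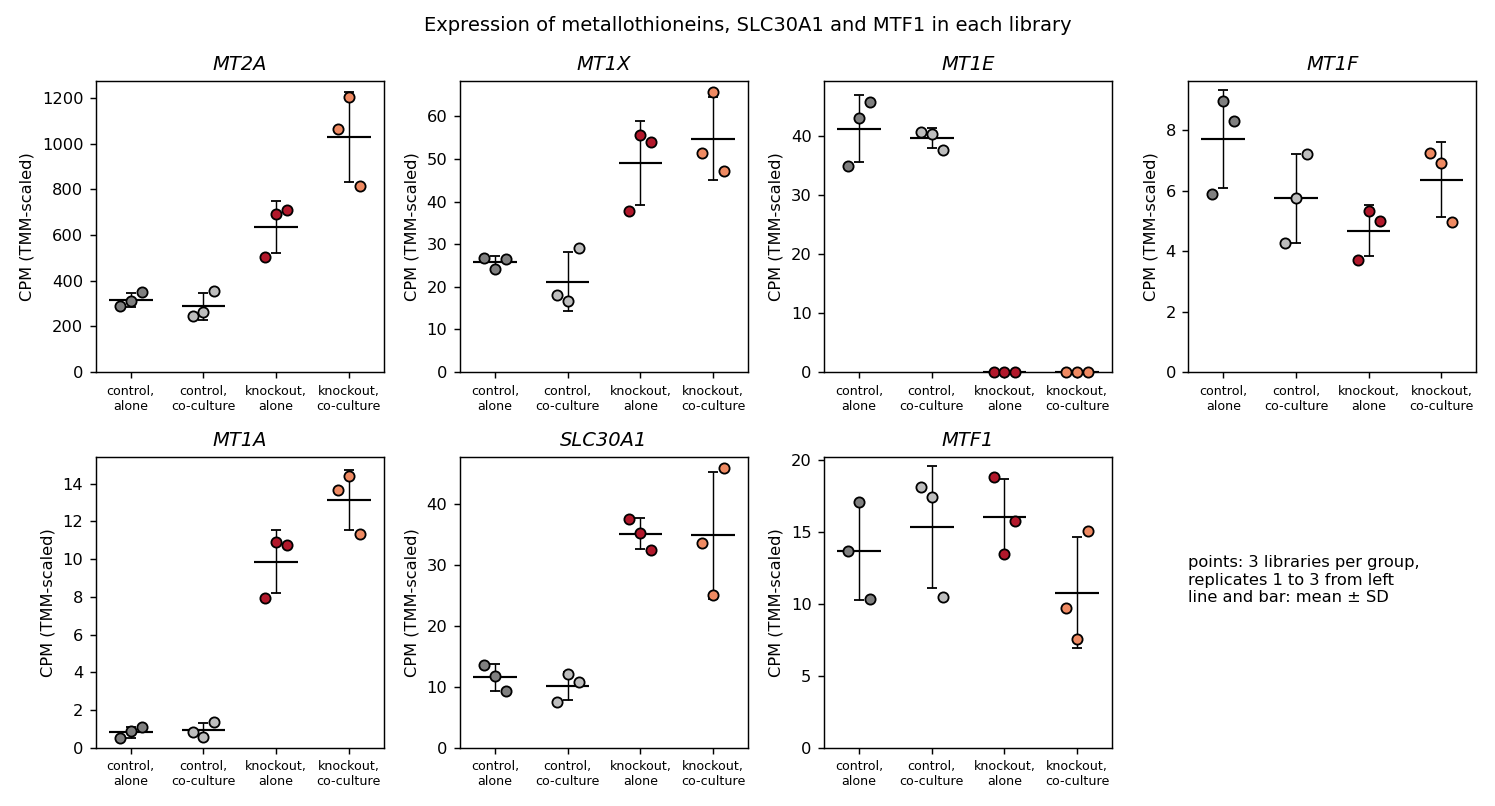
Level of each gene in every library, in TMM-scaled CPM on a linear axis from 0, for the 4 groups of 3 libraries. Points are replicates 1 to 3 from the left, and the line and bar are the mean ± SD. MT2A and MT1X lie higher in the knockout groups, and MT1E has at most 1 count in any knockout library.

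SLC30A1, the exporter, was higher in knockout than in control, 3.05-fold alone and 3.41-fold in co-culture. It stood at 13.6, 11.8 and 9.28 CPM in the lone control and at 7.59, 12.2 and 10.8 CPM in the co-cultured control. In the knockout it stood at 37.6, 35.4 and 32.5 CPM alone and at 33.7, 25.1 and 45.9 CPM in co-culture. No knockout library came down to the highest library labelled control. The log2 fold change was 1.61 (SE 0.24; adjusted p = 0.000109, edgeR) alone and 1.77 (SE 0.24; adjusted p = 5.20e-05, edgeR) in co-culture, and both were called in all 20 alternatives. With offsets for the GC content of transcripts, the value alone was smaller, at 0.94 (edgeR adjusted p = 0.00106). Transcripts of SLC30A1 had the lowest mean GC of the 8 genes, 38.0%, against 52.5% to 61.2% for the metallothionein members.

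MTF1, the sensor, did not pass the test in any comparison. It stood at 13.7, 17.1 and 10.3 CPM in the lone control and at 18.1, 17.5 and 10.5 CPM in the co-cultured control. The lone knockout libraries held 18.8, 13.5 and 15.8 CPM and the co-cultured ones 9.69, 7.60 and 15.1 CPM, so all 4 groups overlapped. The log2 fold change of knockout over control was 0.23 (SE 0.29; adjusted p = 0.520, edgeR) alone, where it was -0.17 with GC offsets, and -0.51 (SE 0.29; adjusted p = 0.165, edgeR) in co-culture. In co-culture the difference was called with GC offsets (-0.61, edgeR adjusted p = 0.0119) and without co-cultured knockout replicate 3 (-0.83, edgeR adjusted p = 0.0193), over a range of adjusted p from 0.0119 to 0.385 in 20 alternatives.

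In knockout against control alone, 5 of the 6 tested members were called, 3 higher (MT2A, MT1X, SLC30A1) and 2 lower (MT1E, MT1F). The background was 56.6% of all tested genes called, 28% higher and 28.6% lower, so calls were common among genes at large. In co-culture 4 of the 6 were called, 3 higher and 1 lower (MT1E), against a background of 49.4% of genes (24.1% higher and 25.3% lower). MT1E had to be called in both, because the control groups alone kept it in the test. The median log2 fold change of the 4 tested metallothionein members was 0.10 alone and 0.75 in co-culture, beside 0.09 and -0.02 over all genes. These medians include MT1E and span members that went in opposite directions. They therefore describe no single member and do not show whether the members shifted. The 2 comparisons use separate libraries.

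**Figure D3:**
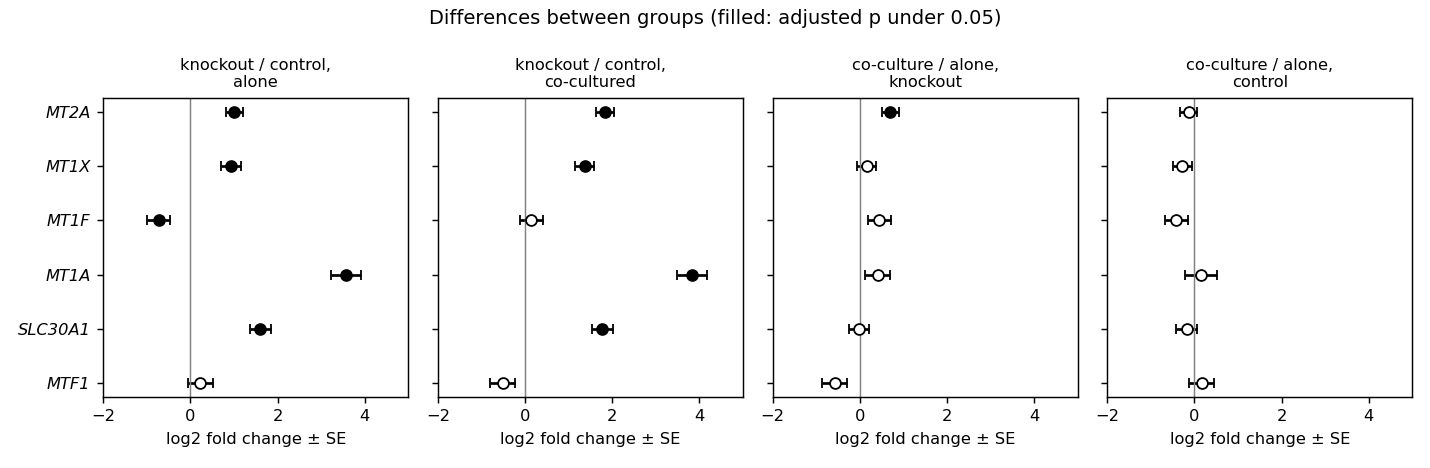
Log2 fold change ± SE (edgeR) of 5 tested members and MT1A in 4 comparisons. Filled points have an adjusted p under 0.05. MT1E is left out because its knockout libraries are at the floor. MT2A, MT1X, MT1A and SLC30A1 lie to the right of 0 in both knockout against control panels, MT2A is the filled point in the co-culture panel of the knockout, and no point is filled in the control panel.

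Co-culture of the knockout cells went with a higher level of MT2A and no other called member. MT2A rose from 635 ± 115 CPM (n = 3, SD) in the lone to 1028 ± 197 CPM (n = 3, SD) in the co-cultured knockout, a log2 fold change of 0.70 (SE 0.20; adjusted p = 0.0400, edgeR). An exact two-sided permutation test gave p = 0.1, the smallest that 3 against 3 libraries allow. The call was 1 of 6 tested members, where the background was 11.4% of genes, with 5.97% called higher. The direction was the same in all 20 alternatives, but 9 of them lost the call, of which 8 are given here. With only the 2 knockout groups in the model, the edgeR adjusted p was 0.102. It was 0.0625 without lone control replicate 2, 0.0595 without co-cultured control replicate 2, and 0.162, 0.0889 and 0.0611 without lone knockout replicates 1, 2 and 3. It was 0.138 and 0.148 without co-cultured knockout replicates 1 and 2, and the range over all alternatives was 0.000819 to 0.162. In the same comparison 3 of 5 tested mesenchymal markers were called lower, and the list summed to 2441 to 2691 CPM alone and 1888 to 2142 CPM in co-culture. The part of this list in the result for MT2A was not tested. CDKN2A, CDKN2B and MTAP, which mark the libraries labelled control, summed to at most 0.647 CPM alone and 0.745 CPM in co-culture. A549 is known to lack these genes, so they cannot show whether parental A549 was part of the co-culture RNA. In bulk RNA of a co-culture, a different share of cells and a different level per cell cannot be told apart.

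The other members above the floor in both knockout groups were not called in that comparison. MT1F stood at 4.68 ± 0.844 CPM (n = 3, SD) alone and 6.37 ± 1.23 in co-culture (0.45 on the log2 scale, SE 0.26; adjusted p = 0.272, edgeR). MT1X had a log2 fold change of 0.16 (SE 0.22; adjusted p = 0.659, edgeR) and MTF1 one of -0.57 (SE 0.29; adjusted p = 0.202, edgeR). MTF1 was called without co-cultured knockout replicate 3, at -0.90 (edgeR adjusted p = 0.0215, within 0.0215 to 0.509 over 20 alternatives). SLC30A1 averaged 35.2 ± 2.54 CPM (n = 3, SD) alone and 34.9 ± 10.5 CPM in co-culture, a log2 fold change of -0.01 (SE 0.23; adjusted p = 0.982, edgeR). Its sign turned in 8 of 20 alternatives, and with GC offsets it was called higher in co-culture, at 0.71 (edgeR adjusted p = 0.0155, within 0.0155 to 0.993 over the alternatives).

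Replicates of a group differed from its mean along a trend with transcript GC content, and MT2A moved with it. The rank correlation of the deviations with GC ran from -0.753 in co-cultured knockout replicate 3 to 0.735 in its replicate 2, which were the lowest (816 CPM) and the highest (1205 CPM) of that group for MT2A. In all 4 groups the library with the lowest correlation had the lowest MT2A and the library with the highest correlation the highest MT2A. With GC offsets the difference of MT2A between the knockout groups was 0.54 (edgeR adjusted p = 0.00436).

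In the libraries labelled control, co-culture went with no called difference in any member, and 0% of all genes were called. The log2 fold changes ran from -0.42 for MT1F to 0.16 for MTF1, each with an edgeR adjusted p of 1. At an unadjusted p under 0.05 edgeR gave 540 of 16768 genes and no member, and DESeq2 called no gene. The 540 genes are a smaller share than the 0.05 that would fall there without any difference. MT2A was 316 ± 31.0 CPM (n = 3, SD) alone and 288 ± 57.6 CPM in co-culture.

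Whether co-culture differed in its effect between knockout and control cells was tested as an interaction, for which 1.8% of genes were called. No member was. MT2A had an interaction of 0.83 (SE 0.28; adjusted p = 0.161, edgeR) and MT1F one of 0.87 (SE 0.37; adjusted p = 0.243, edgeR). Without co-cultured knockout replicate 3, the interaction of MT2A was 0.97 (edgeR adjusted p = 0.0191) and that of MTF1 was -1.06 (edgeR adjusted p = 0.0498). With GC offsets that of MT2A was 0.65 (edgeR adjusted p = 0.0298), and it was called in 4 of 19 alternatives in all. Over these 19 alternatives the adjusted p ran from 0.0191 to 0.350 for MT2A and from 0.0498 to 0.605 for MTF1.

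The summed level of the 6 metallothionein members was 391 ± 37.5 CPM (n = 3, SD) in the lone control and 354 ± 63.9 in the co-cultured control. It was 688 ± 126 in the lone knockout and 1089 ± 207 in the co-cultured knockout, or 1.76 and 2.79 times the lone control. The single libraries ran from 309 to 429 CPM in the control groups, from 544 to 768 CPM in the lone knockout and from 868 to 1277 CPM in the co-cultured knockout, without overlap between the 2 sets. The sum follows MT2A, which supplies most of it.

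The make-up of the metallothionein RNA also differed between the sets. Of the summed counts of the 6 members and MT1A, MT2A made up 80.7% ± 0.460 (n = 3, SD) in the lone control, 80.8% ± 1.54 in the co-cultured control, 90.9% ± 0.262 in the lone knockout and 93.2% ± 0.431 in the co-cultured knockout. MT1E supplied 10.5% ± 0.646 in the lone control and 0.00472% ± 0.00413 in the lone knockout. MT1X supplied 6.63% ± 0.768 in the lone control and 7.03% ± 0.229 in the lone knockout, which differ by less than the spread of the control libraries, and 4.99% ± 0.432 in the co-cultured knockout. MT1A supplied 0.205% ± 0.0589 in the lone control and 1.42% ± 0.0309 in the lone knockout.

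**Figure D4:**
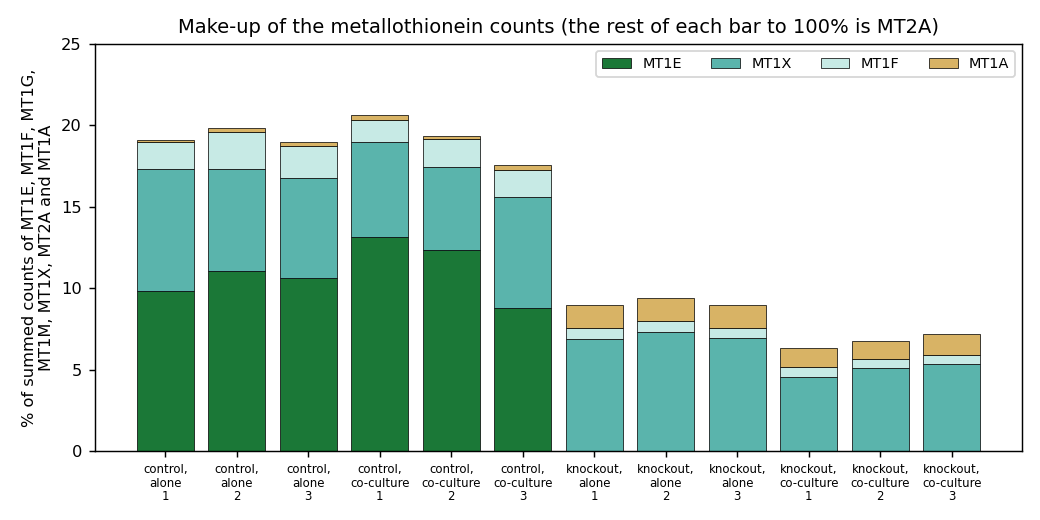
Share of each metallothionein other than MT2A in the summed counts of MT1E, MT1F, MT1G, MT1M, MT1X, MT2A and MT1A, in percent, 1 bar per library with the replicate number below it. MT2A is the rest of each bar to 100%, and the axis stops at 25%. MT1E is a block of about 10.5% in the lone control libraries and has no visible block in the knockout libraries, where MT1A is larger.

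Per length of merged exons (CPM per kilobase), the order of the genes changed between the sets. In the lone control MT2A stood at 243 ± 23.9 (n = 3, SD), MT1E at 39.2 ± 5.43, MT1X at 14.5 ± 0.784 and MT1F at 4.09 ± 0.863. Below them SLC30A1 at 2.11 ± 0.398, MT1A at 2.06 ± 0.760 and MTF1 at 1.71 ± 0.423 did not differ beyond their spread. In the lone knockout the order was MT2A at 488 ± 88.6, then MT1X at 27.7 ± 5.56 and MT1A at 24.9 ± 4.20, which did not differ beyond their spread. SLC30A1 followed at 6.42 ± 0.464, then MT1F at 2.48 ± 0.447 and MTF1, which again did not differ beyond their spread, and MT1E came last at 0.0292.

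MT1A, which belongs to the list of other metallothionein genes, had the largest log2 fold change of the tested genes of the cluster that rose in the knockout. It stood at 0.495, 0.861 and 1.09 CPM in the lone control and at 0.830, 0.573 and 1.34 CPM in the co-cultured control, which is 8 to 33 counts a library. It reached 7.95, 10.9 and 10.8 CPM in the lone knockout and 13.7, 14.4 and 11.3 CPM in the co-cultured knockout. Its log2 fold change of knockout over control was 3.57 (SE 0.34; adjusted p = 2.28e-06, edgeR) alone and 3.83 (SE 0.33; adjusted p = 1.07e-06, edgeR) in co-culture. Both calls held in all 20 alternatives. MT1A and MT1E thus moved in opposite directions.

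The other 5 genes of that list (MT1B, MT1H, MT1HL1, MT3, MT4) were too low to test. The brain form MT3 had the highest of these counts, 20 in total in the co-cultured knockout. Of 10 metallothionein pseudogenes 9 had a row and 2 were tested. MT2P1, a processed copy of MT2A on chromosome 4, stood at 1.67 ± 0.560 CPM (n = 3, SD) in the lone and 3.27 ± 0.338 in the co-cultured knockout (0.99 on the log2 scale, SE 0.27; adjusted p = 0.0338, edgeR). It shares 15.7% of its 50-base stretches with other genes, so reads of a parent gene counted there cannot be told apart from its own. The other tested one, MT1DP, was not called in any comparison. Between knockout and control MT2P1 was called in co-culture (1.38, edgeR adjusted p = 0.000881) and not alone (0.41, edgeR adjusted p = 0.245).

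**Figure D5:**
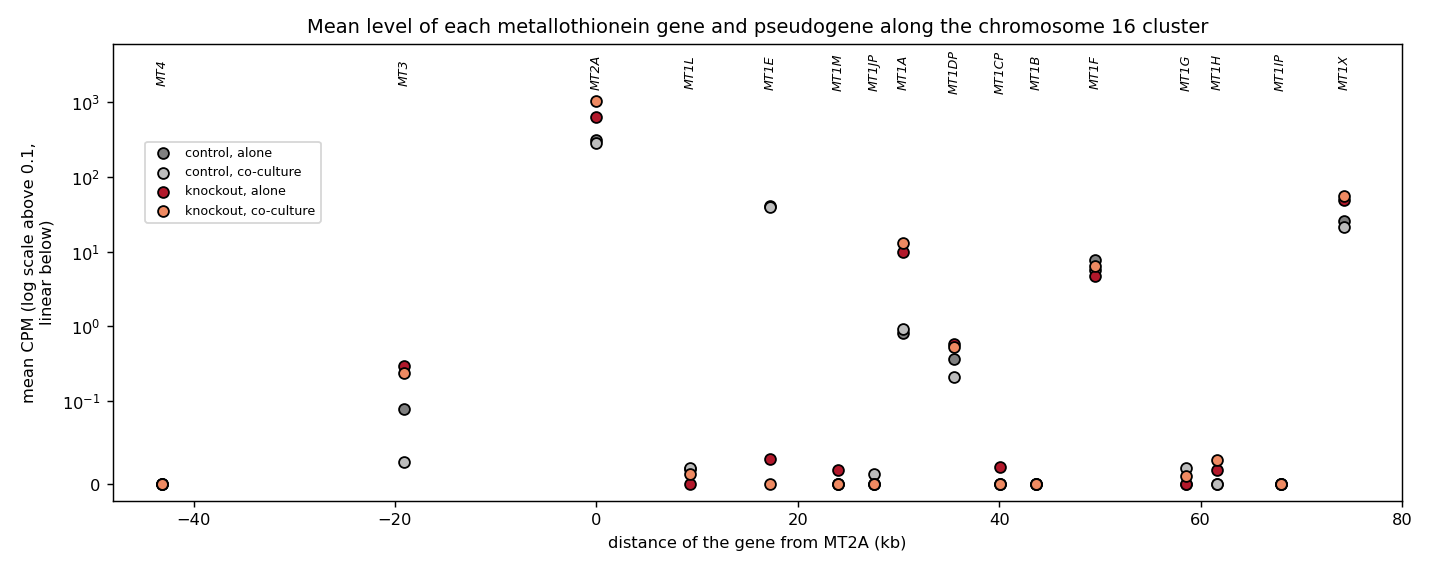
Mean CPM of each metallothionein gene and pseudogene of the chromosome 16 cluster in the 4 groups, plotted by distance from MT2A in kilobases. The y axis is logarithmic above 0.1 CPM and linear below it. MT1E and MT1A, which lie close together, show opposite orders of control and knockout, and MT1M, MT1G and MT1H lie at or near 0 in all groups.

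Other lists of genes are described by counts, beside the shares of all genes called, which were 56.6% in the lone knockout against the lone control (median 0.09), 49.4% in the same comparison in co-culture and 11.4% in co-cultured against lone knockout. Of 8 tested genes beside the cluster on 16q, 3 were higher and 2 lower in the lone knockout than in the lone control, with a median log2 fold change of 0.40. NUP93, of the nuclear pore, changed by -0.72 (edgeR adjusted p = 0.00126) and RSPRY1 by 1.50 (edgeR adjusted p = 0.00210). In co-cultured against lone knockout 1 of 8 was called, HERPUD1, an endoplasmic reticulum stress protein, at 0.49 (edgeR adjusted p = 0.0151), a share near the 11.4% of all genes.

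The other zinc transporters gave mixed counts, with medians of 0.52 for the exporters and 0.08 for the importers alone. Of 6 tested exporters of the SLC30 family, 3 were higher and 1 lower in the lone knockout than in the lone control, and in co-culture 0 were higher and 1 lower, where 24.1% of all genes were higher and 25.3% lower. SLC30A3, which loads zinc into vesicles, changed by -3.11 (edgeR adjusted p = 8.38e-08) and SLC30A6, of the Golgi, by 1.36 (edgeR adjusted p = 0.0123). Of 11 tested importers of the SLC39 family, 2 were higher and 4 lower alone, and 3 were higher and 3 lower in co-culture. SLC39A4, the zinc importer of the gut, changed by -1.95 (edgeR adjusted p = 1.26e-05) and SLC39A3 by -1.65 (edgeR adjusted p = 0.000155). No gene of either list was called in co-cultured against lone knockout.

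Of 12 tested copper genes, 5 were higher and 1 lower in the lone knockout (median 0.30), where 56.6% of all genes were called. The smallest p were those of COMMD1 at 1.36 (edgeR adjusted p = 1.77e-05) and STEAP3 at 0.71 (edgeR adjusted p = 0.000962). In co-cultured against lone knockout 1 of the 12 was called, where 11.4% of all genes were. It was ATP7A, a copper-exporting ATPase, at -1.54 (edgeR adjusted p = 0.0346). Of 10 iron genes, 7 were higher and 1 lower in the lone knockout, and their median log2 fold change was 0.91. The lower one had at most 2 counts in any lone knockout library, so its call was fixed by the low-count filter. HMOX1, the heme-degrading enzyme, stood at 83.0 ± 14.3 CPM (n = 3, SD) in the lone control and 671 ± 91.9 in the lone knockout (log2 fold change 3.02, edgeR adjusted p = 5.65e-08). HMOX1 was also the 1 iron gene of 10 called in co-cultured against lone knockout, beside the same 11.4% of all genes. It was lower in co-culture, at -0.82 (edgeR adjusted p = 0.0134), the opposite direction to MT2A in those libraries. ACO1, an iron-sensing RNA-binding protein, was higher in the lone knockout by 1.10 (edgeR adjusted p = 4.42e-05).

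Of 11 heavy-metal and oxidant stress targets, which include HMOX1, 8 were higher and 2 lower in the lone knockout, and their median log2 fold change was 1.18. The lower ones include HSPA1B, an inducible chaperone, at -1.45 (edgeR adjusted p = 2.37e-06). In co-cultured against lone knockout 2 were higher and 2 lower, against 11.4% of all genes called, among them HSPA1B at 0.86 (edgeR adjusted p = 0.00242) and HSPA1A at 0.99 (edgeR adjusted p = 0.00274). HSPA1A and HSPA1B are near-identical copies whose reads may be exchanged, so their single values are uncertain.

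Of 7 tested glucocorticoid-response genes, 4 were higher and 2 lower in the lone knockout, with a median of 0.90. PER1, a clock gene, was lower by -3.08 (edgeR adjusted p = 2.53e-08) and DUSP1, a phosphatase of MAP kinases, was higher by 2.31 (edgeR adjusted p = 3.20e-07). In co-cultured against lone knockout, 2 were higher and 1 lower, against the same 11.4%. PER1 was higher by 1.53 (edgeR adjusted p = 0.000193) and TSC22D3 by 0.95 (edgeR adjusted p = 0.00218). The stress list and the glucocorticoid list thus each held genes called in both directions.

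Across the 12 libraries MT2A and MT1X had a Pearson correlation of log2 CPM of 0.949, and SLC30A1 had 0.830 with MT2A and 0.840 with MT1X. MT1E had -0.919 with MT2A, and MTF1 had -0.529. The libraries fall into 2 sets, control and knockout, so these values describe that split and carry no test. By the rule for likeness, the 5 genes among 10250 closest to the mean log2 CPM of the 4 tested metallothioneins were LMTK3 (0.996), ROBO3 (0.996), NRGN (0.996), FOXO6 (0.995) and SLC30A3 (0.995). All 5 were lower in the knockout groups, the direction of MT1E, which has the widest range of the 4. Closest to MT2A alone, a choice made after values were seen, were BAX (0.993), TTC7A (0.990), ZBTB4 (0.990), LRP10 (0.989) and WSCD1 (0.988).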

How the data were processed

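RNA of 12 libraries labelled as A549 was sequenced, and the authors deposited whole-number counts per Ensembl gene, not normalized. Per the submitters' processing notes, FastQC, STAR 2.7.9a, featureCounts, R 4.2.1 and DESeq2 1.36.0 were used, with GRCh38. The annotation, strand setting and treatment of multi-mapping reads are not given in the sources used here, so a gene and an antisense or overlapping one may share reads.

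Symbols were found for 42045 of 61541 identifiers, and 58366 were in GENCODE 29, which gave positions, exon lengths, coding sequences and GC content. Promoters came from RefSeq (GRCh38.p14). The filterByExpr function of edgeR 4.0.16 (R 4.3.3) kept 16768 genes, which were scaled by TMM and tested by the robust quasi-likelihood F-test in 1 model of 4 group means. P-values were adjusted by Benjamini-Hochberg over all tested genes in each of 5 comparisons and called under 0.05. The method was checked on simulated counts. Each ± is an SD over 3 libraries. Lists are described by counts and medians. A group with at most 3 counts in every library was treated as at the floor. Differences against the floor are given as at least that fold, without an interval. The biological coefficient of variation was 22.1%. Replicates differed by a chi-square of 8.02 to 127 per gene, where counting noise gives about 1, so each library was counted once.

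Replicate numbers were checked for pairing. Same-numbered libraries of different groups had deviations that correlated between -0.603 and 0.491. Outside the co-cultured knockout, replicates 1 and replicates 3 correlated positively with their own number, from 0.189 to 0.491. Co-cultured knockout replicate 3 instead followed replicate 1 of the other groups, at 0.357 to 0.639. Since the numbers did not match across all 4 groups, they were not taken as pairs. Alternatives were RLE and library-size scaling, no filter, DESeq2 1.42.0, only the groups compared, a replicate block, GC offsets (98.4% of tested genes had a value), and leaving out each library.

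All 8 members are named. From each other list, the 2 called genes with the smallest p were named in knockout against control alone and in co-cultured against lone knockout, and the 5 genes with the highest correlation at a mean of at least 5 CPM are given. The members and lists were chosen with earlier results of these data known.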

Additional observations from a re-analysis of the deposited data

Results flagged for a closer look

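In 4 genes of the lists examined and in the targeted gene TYMS, the difference between co-cultured and lone cells was not the same in knockout and control, by a test of the interaction itself in edgeR. None is a metallothionein, MTF1 or SLC30A1. For HSPA1A, an inducible chaperone, the co-culture difference in knockout exceeded that in control by 1.07 (log2). For HSPA1B, its near-identical copy, this was 1.03, for PER1, a clock gene, it was 1.77, and for CDKN1A, a cell cycle inhibitor, it was 1.26. CDKN1A stood at 214 ± 41.3 CPM (n = 3, SD) in the lone and 198 ± 22.4 in the co-cultured control, and at 1130 ± 163 in the lone and 2516 ± 536 in the co-cultured knockout. At an adjusted p of 0.0402 (edgeR) it was the closest of these 4 to the threshold. For TYMS the difference was -0.89 (log2), with 20.8 ± 0.547 CPM (n = 3, SD) in the lone and 11.04 ± 0.360 in the co-cultured knockout.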

How the results depend on the processing

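The calls of MT2A, MT1X and SLC30A1 in knockout against control, alone and co-cultured, held in all 20 alternatives each. The call of MT2A in co-cultured against lone knockout did not, and the cause was not tested. In that comparison 1 member was called. With only the groups compared it was 0, with GC offsets 2, with the replicate block and GC offsets 2, and 0 to 2 when single libraries were left out. All genes called there numbered 1907, against 3340 without the low-count filter, 3347 with DESeq2, 635 with only the groups compared, 4853 with GC offsets and 548 to 5648 without single libraries, lowest without co-cultured knockout replicate 1 and highest without its replicate 3. Of these calls 52.5% were higher, against 69.7% with library-size scaling, which also moved the median over all genes (log2) from 0.09 to 0.24 in knockout against control alone, and in the interaction from 0.01 to -0.11.

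With the replicate block, 0 members were called in co-cultured against lone knockout (MT2A 0.72, edgeR adjusted p = 0.0532) and 1080 genes, or 4115 with GC offsets. The interaction had 179 genes with the block and 848 with the block and GC offsets. The block changed no other call of a member. Pairing by number is not shown across all groups, since same-numbered libraries correlated between -0.603 and 0.491, with the co-cultured knockout out of step.

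For the interaction 301 genes and 0 members were called. Without the filter these were 1342 and 1, with GC offsets 1423 and 1, with the block and GC offsets 1 member, with DESeq2 878 genes, and without single libraries 118 to 3638 genes and 0 to 2 members, highest without co-cultured knockout replicate 3. Between the control groups 0 genes were called, and 2 without the filter.

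Signs turned for differences that were not called. MTF1 in knockout against control alone was -0.17 with GC offsets, with or without the block. SLC30A1 in co-cultured against lone knockout was 0.032 with RLE and with DESeq2, 0.10 without the filter and 0.71 with GC offsets, with or without the block, the last 2 of which were calls. MT1E between the control groups was 0.020 with library size only. Without single libraries, MT1X ran from -0.0064 to 0.26 and SLC30A1 from -0.26 to 0.17 in co-cultured against lone knockout, and MT1F from -0.027 to 0.31 in knockout against control co-cultured. Between the control groups MT1E ran from -0.17 to 0.018, MTF1 from -0.0099 to 0.38 and MT1A from -0.25 to 0.43. In the interaction SLC30A1 ran from -0.087 to 0.35 and MT1A from -0.028 to 0.65. The summed metallothionein level moved by less than 1 SD in each group with library-size scaling and with the whole metallothionein family counted. Leaving out 1 of 3 libraries cannot move a mean by 1 SD, so those runs are no support. MT1G, MT1M and MT1E in the knockout are limited by depth.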
